A study of Mus musculus with 26 samples.

Results

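The 7 genes described here encode subunits of the GABA-A receptor: the alpha subunits Gabra2, Gabra3, Gabra4 and Gabra5, the beta subunit Gabrb1, the gamma subunit Gabrg3 and the delta subunit Gabrd. They were taken by symbol from the probe table of the array and are 7 of the 18193 genes that the table names by a single symbol. Together they have 20 probe sets, of which the one with the highest mean level over all arrays stood for each gene and the others served as a check. Each gene was read in 13 subtypes of neuron sorted from the mouse retina at postnatal day 6, on 26 single-colour Affymetrix arrays.

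GABA-A receptors are chloride channels built of 5 subunits around a pore, most often of alpha, beta and gamma subunits, with delta taking the place of gamma in some receptors. The alpha subunit sets much of the receptor's kinetics and drug response: receptors with alpha-2 or alpha-3 sit mainly at synapses, while alpha-5 and delta are known for receptors outside synapses that carry tonic current. In the retina GABA is released chiefly by amacrine cells and horizontal cells, and reaches bipolar cell terminals, other amacrine cells and ganglion cell dendrites. Receptors made of rho subunits, a separate branch of the family, are known for the terminals of bipolar cells.

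The subtypes fall into 6 ganglion cell groups, 5 amacrine groups and 2 bipolar groups, with 2 arrays each from different litters. Ganglion cells, which send the output of the retina to the brain, were sorted as Thy1-positive and positive for a reporter: YFP for BD, J, W3 and W7, GFP for Cdh3 and beta-galactosidase for Isl2. Amacrine cells, the interneurons of the inner retina, were starburst cells (Kusabira Orange-positive, Thy1-negative), AII, PaxCre (both GFP-positive), J (YFP-positive) and MP (CFP-positive and VC1.1-positive). The bipolar groups were ON cells (GFP-positive) and MP cells (CFP-positive and VC1.1-negative). Mice were C57BL/6, except that MP cells came from a mixed C57BL/6 x CD1 background, AII cells from Swiss Webster x C57BL/6, and the labels of the Cdh3 arrays read Swiss Webster x C57BL/7 and Swiss Webster x C57BL/8. No group carried a drug treatment or a mutation named in the labels other than its reporter, and the labels used here do not give the promoter behind each reporter.

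Levels are log2(intensity + 16) after quantile normalization of all arrays, so that 1 unit is close to a 2-fold step in intensity for bright genes and a larger step for dim ones, the floor lies at 4.09 and the median of all values at 6.14. A difference passed the test if its Benjamini-Hochberg adjusted p in limma, over 13951 genes, was under 0.05 and its size at least 1 unit. Before normalization the 12 ganglion cell arrays had median intensities of 61.5 to 74.8 and the 14 others 37.4 to 47.1, so that scale and class cannot be told apart. The 6 listed ganglion cell markers averaged 11.53 to 11.99 in the ganglion cell groups, array by array, and 5.28 to 7.60 elsewhere, and the 3 measured bipolar markers 12.05 to 12.19 on bipolar arrays. Of the ganglion cell markers, Thy1 averaged 10.69 to 11.77 in ganglion cell groups but also 11.67 in MP bipolar and 10.38 in MP amacrine cells. It averaged 9.98 in starburst cells, which were sorted as Thy1-negative. Nefl averaged 12.64 to 13.03 in ganglion cell groups, 10.75 in PaxCre cells and 9.93 in J amacrine cells. The 5 amacrine markers averaged 10.44 to 11.51 in 4 amacrine subtypes but 8.65 in MP amacrine cells. There the bipolar markers averaged 10.12 (Prdm8 12.44, Otx2 10.89 and Cabp5 7.04) and the 6 rod markers 9.45. The bipolar markers averaged 5.69 to 10.51 on amacrine arrays, and Prdm8 alone was at 12.12 in PaxCre and 10.92 in J amacrine cells. The 6 microglial markers passed the test as higher in ganglion cells than in amacrine cells, at 6.52 to 10.94 per array against 5.49 to 8.11, and so did the 2 vessel markers tested. The part of these markers in the results on the 7 genes was not tested. In sorted bulk samples, fewer cells with a transcript and less transcript per cell cannot be told apart.

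All 7 genes differed between subtypes. The F-test of limma over the 13 subtypes was passed by 7 of 7 genes, against 71.3% of all genes tested, and the median span between the highest and the lowest subtype was 5.35 units for the 7 genes against 1.58 for all genes. Among the 5 amacrine subtypes 6 of 7 passed, Gabrg3 being the exception (40.2% of all genes), with a median span of 3.71 against 0.92. Among the 6 ganglion cell subtypes 5 of 7 passed, Gabrg3 and Gabrd being the exceptions (5.94% of all genes), with a median span of 1.65 against 0.58. Genes needed at least 2 arrays above the overall median to be tested. Gabrd met this only through the 2 starburst arrays and Gabrg3 only through 10 ganglion cell arrays, so any difference of these 2 genes is given below as a description and supports nothing. The counts are therefore also given over the other 5 genes, which passed each of these F-tests in 5 of 5 cases. All 7 genes were chosen with earlier results of these data known, so the comparisons with all genes are descriptions too. Of the GABA-A subunit genes outside the 7, 3 of 5 tested passed over the 13 subtypes, with a median span of 1.39. Among amacrine subtypes 3 of these 5 passed (median span 1.24), and among ganglion cell subtypes 2 of 5 (0.65).

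**Figure D1:**
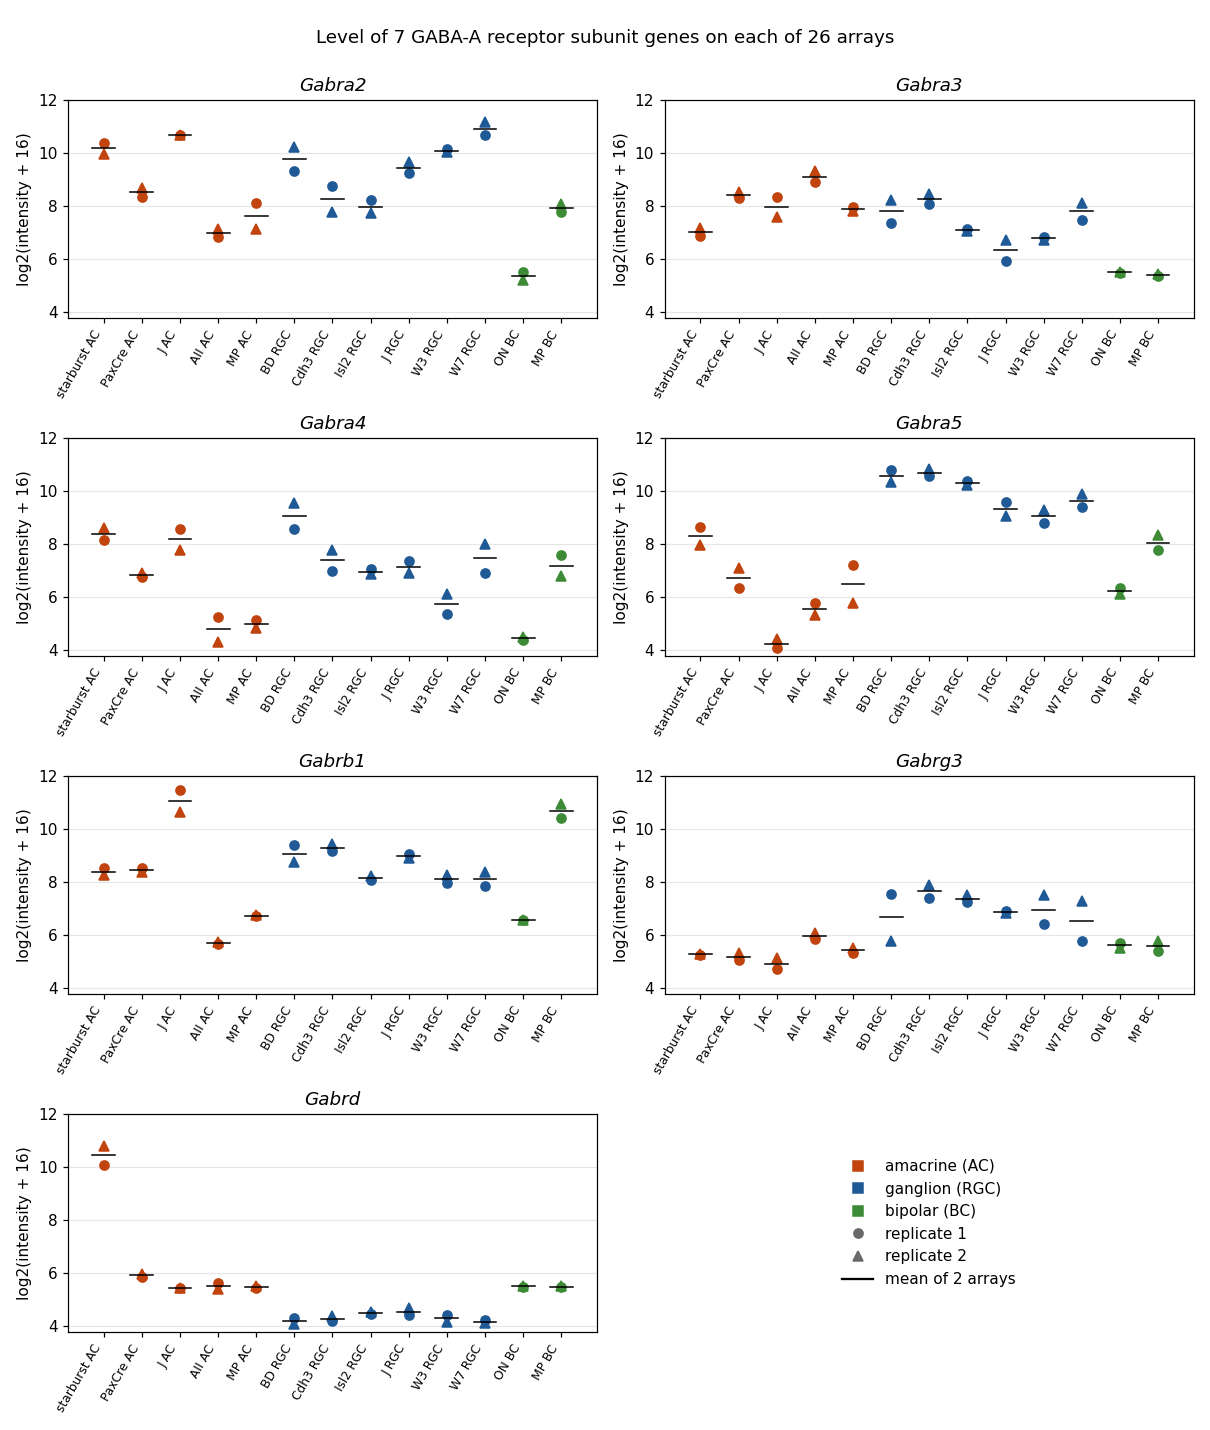
Level of each of the 7 genes, as log2(intensity + 16) on the vertical axis, in the 13 subtypes on the horizontal axis. Circles and triangles are replicates 1 and 2, bars the mean of 2 arrays, and colours the class. Gabra5 was at 8.82 or more on all 12 ganglion cell arrays, Gabrd at 10.10 or more only in starburst cells, and Gabrb1 at 10.44 or more only in J amacrine and MP bipolar cells.

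Gabra2, whose alpha-2 subunit is known for synaptic receptors, was brightest in W7 ganglion cells, J amacrine cells and starburst cells. Among amacrine cells it read 10.71 and 10.68 on the J arrays, 10.41 and 9.99 on the starburst arrays, 8.36 and 8.70 on the PaxCre arrays, 8.14 and 7.16 on the MP arrays and 6.84 and 7.14 on the AII arrays. The J and starburst arrays lay above every other amacrine array and the AII arrays below them all. Among ganglion cells it read 10.68 and 11.19 in W7, 10.16 and 10.05 in W3, 9.34 and 10.25 in BD, 9.25 and 9.67 in J, 8.77 and 7.79 in Cdh3 and 8.23 and 7.75 in Isl2. The 2 W7 arrays were the highest of the 12, and the Cdh3 and Isl2 arrays the lowest. In bipolar cells it read 7.79 and 8.10 in MP and 5.53 and 5.21 in ON cells, the latter the lowest of all subtypes. In the order of the 13 means only the step from AII to ON bipolar cells, the lowest pair, passed the test (1.62 units, adjusted p = 0.00235 in limma; 17.5% of all genes passed between these 2 subtypes), and 8 of the 12 neighbouring pairs had overlapping arrays.

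The Gabra2 pattern depended on the probe set. The second brightest probe set lay between 8.64 and 10.68 in all 12 samples of ganglion cells. In all 14 of amacrine and bipolar cells it lay between 4.16 and 5.07. The probe table assigns it, like the first, to Gabra2 alone, but whether its probes also match other transcripts was not tested. In J amacrine cells it read 4.40 and 5.06 and in starburst cells 4.65 and 4.81, where the brightest probe set was near its highest. Between ganglion and amacrine cells it gave a difference of 5.23 ± 0.12, against 0.62 for the brightest. The probe set ranked 3 followed the brightest over the 13 subtypes (Pearson r = 0.94, n = 13 subtype means on the same arrays), at 7.59 and 7.15 in J amacrine cells, 6.94 and 7.41 in starburst cells and 4.72 and 4.70 in AII cells, and the second did so less closely (r = 0.46). The second and the fifth probe sets name the same source sequence in the probe table. The fifth stayed below the overall median on all arrays, and its correlation with the brightest was 0.69.

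**Figure D2:**
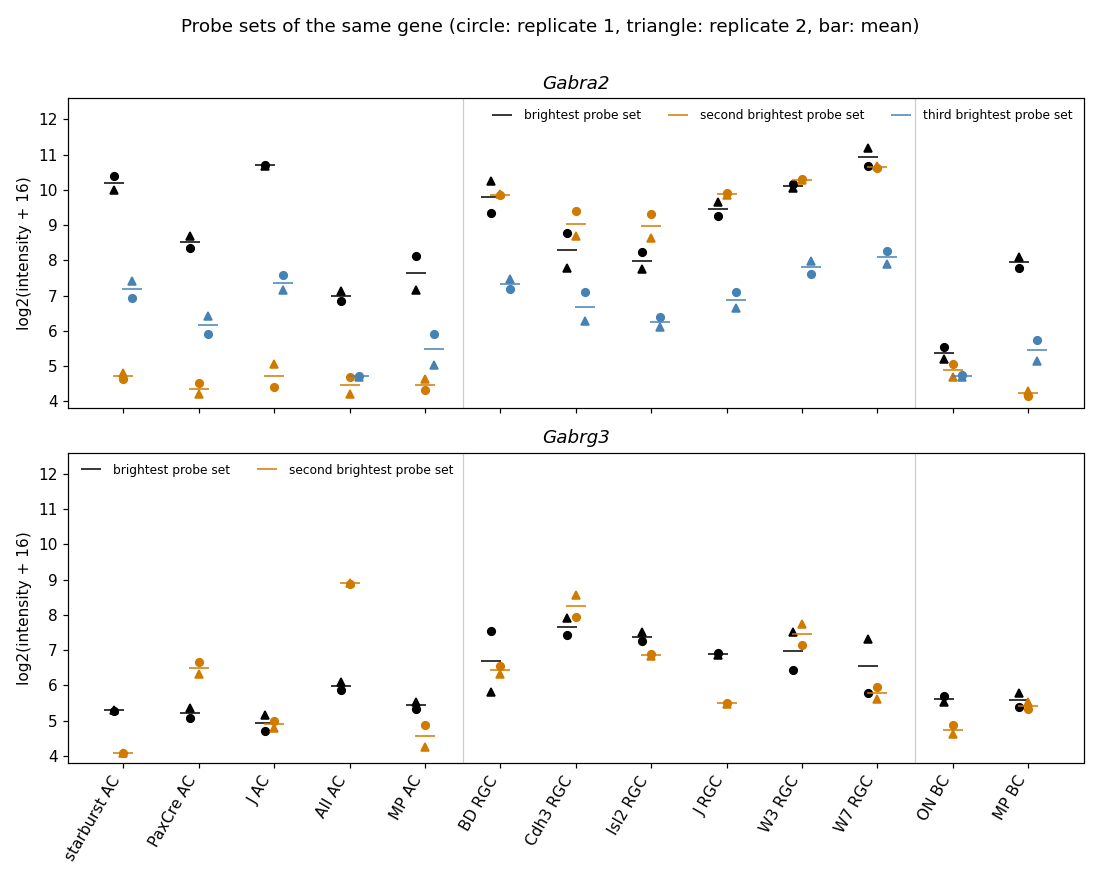
Levels of Gabra2 by its 3 brightest probe sets and of Gabrg3 by its 2 brightest, as log2(intensity + 16) on the vertical axis, for the 13 subtypes, with grey lines between amacrine, ganglion and bipolar subtypes. Circles and triangles are replicates 1 and 2 and bars their mean. The second Gabra2 probe set stood at 4.16 to 5.07 on every amacrine and bipolar array, and the second Gabrg3 probe set read 8.89 and 8.91 in AII cells.

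Gabra3, the alpha-3 gene of synaptic receptors and X-linked (chromosome X), was brightest in AII amacrine cells and near the same low level in both kinds of bipolar cell. Among amacrine cells it read 8.91 and 9.35 in AII, 8.33 and 8.56 in PaxCre, 8.34 and 7.61 in J, 7.99 and 7.84 in MP and 6.88 and 7.19 in starburst cells. The AII arrays lay above and the starburst arrays below all other amacrine arrays. Ganglion cells spanned 5.95 to 8.47 with a median of 7.26, with Cdh3 at 8.09 and 8.47 and J at 5.95 and 6.73 as the extremes, BD at 7.38 and 8.24, W7 at 7.49 and 8.14, Isl2 at 7.15 and 7.09 and W3 at 6.85 and 6.74. The 4 bipolar arrays read 5.49 and 5.53 in ON and 5.37 and 5.46 in MP cells, below every amacrine and ganglion cell array. None of the 12 neighbouring pairs in the order of means passed the test, the widest step being 0.83 from J ganglion to ON bipolar cells (adjusted p = 0.0397 in limma). The second probe set stayed between 4.28 and 6.40, and over the 13 subtypes its correlation with the brightest was -0.0031.

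Gabra4, whose alpha-4 subunit is known to pair with delta outside synapses, was brightest in BD ganglion cells, starburst cells and J amacrine cells. In amacrine cells it read 8.17 and 8.62 in starburst, 8.59 and 7.79 in J, 6.79 and 6.90 in PaxCre, 5.14 and 4.86 in MP and 5.27 and 4.33 in AII cells. The starburst and J arrays lay above and the MP and AII arrays below both PaxCre arrays. In ganglion cells it read 8.56 and 9.57 in BD, 6.92 and 8.02 in W7, 7.00 and 7.80 in Cdh3, 7.37 and 6.93 in J, 7.09 and 6.86 in Isl2 and 5.39 and 6.14 in W3. Both BD arrays were above and both W3 arrays below the other ganglion cell arrays. MP bipolar cells read 7.59 and 6.81 and ON bipolar cells 4.40 and 4.51, close to the floor. No neighbouring pair of subtypes in the order of means passed the test, the widest step being 1.08 from PaxCre to W3 cells (adjusted p = 0.0640 in limma). The second probe set had its highest readings in J amacrine cells (9.20 and 8.14) and starburst cells (6.95 and 8.38), and its correlation with the brightest was 0.79 over the 13 subtypes.

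Gabra5, the alpha-5 gene, was brightest in ganglion cells. The 12 ganglion cell arrays ranged from 8.82 to 10.85 with a median of 10.06: Cdh3 read 10.58 and 10.85, BD 10.82 and 10.37, Isl2 10.39 and 10.23, W7 9.42 and 9.88, J 9.60 and 9.06 and W3 8.82 and 9.31. All lay above every amacrine and bipolar array. Amacrine cells read 8.67 and 7.97 in starburst, 6.37 and 7.12 in PaxCre, 7.22 and 5.77 in MP, 5.77 and 5.33 in AII and 4.09 and 4.41 in J cells, where replicate 1 was at the floor. Starburst arrays were the highest and J arrays the lowest of the class. Bipolar cells read 7.80 and 8.34 in MP and 6.36 and 6.14 in ON cells, without overlap. In the order of means the steps from MP bipolar to PaxCre cells (1.32 units, adjusted p = 0.0174) and from AII to J amacrine cells (1.30 units, adjusted p = 0.0169) passed the limma test, where 17.6% and 19.5% of all genes passed. The step from the lowest ganglion cell subtype, W3, to starburst cells was 0.74 units and did not pass (adjusted p = 0.148 in limma). Gabra5 has a single probe set here, so no other probe set could check it.

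Gabrb1, a beta subunit gene, was brightest in J amacrine and MP bipolar cells. It read 11.47 and 10.65 in J amacrine and 10.44 and 10.94 in MP bipolar cells, and in the other amacrine cells 8.54 and 8.40 in PaxCre, 8.56 and 8.26 in starburst, 6.73 and 6.75 in MP and 5.67 and 5.75 in AII cells. AII cells were the lowest of all 13 subtypes. Ganglion cells lay closer together, with Cdh3 at 9.18 and 9.45, BD at 9.42 and 8.75, J at 9.08 and 8.93, Isl2 at 8.10 and 8.23, W7 at 7.87 and 8.39 and W3 at 7.99 and 8.27, and ON bipolar cells read 6.58 and 6.59. J amacrine and MP bipolar arrays stood above all others, and ON bipolar, MP amacrine and AII arrays below all others. The steps below the top pair (MP bipolar to Cdh3 ganglion cells, 1.38 units, adjusted p = 0.000364) and above the bottom 3 subtypes (W3 ganglion to MP amacrine cells, 1.39 units, adjusted p = 0.000375) passed the limma test, as did 31.8% and 29.2% of all genes for those subtypes. The probe sets ranked 2 and 3 followed the first (r = 0.95 and 0.97 over 13 subtypes), with J amacrine cells at 9.51 and 8.60 and MP bipolar cells at 9.19 and 9.46 by the second. The fourth lay at or near the floor on all arrays, its highest reading being 4.53.

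Gabrg3, a gamma subunit gene, was dim and brightest in ganglion cells. Ganglion cell arrays ranged from 5.77 to 7.91 with a median of 7.28: Cdh3 read 7.42 and 7.91, Isl2 7.24 and 7.52, W3 6.43 and 7.51, J 6.90 and 6.85, BD 7.55 and 5.80 and W7 5.77 and 7.31. Replicates of BD and W7 differed by more than most subtypes did, and 1 array of each fell among the amacrine arrays. The others read 4.71 to 6.09, with AII at 5.86 and 6.09, MP amacrine at 5.33 and 5.54, starburst at 5.27 and 5.30, PaxCre at 5.06 and 5.34, J amacrine at 4.71 and 5.16, ON bipolar at 5.70 and 5.54 and MP bipolar at 5.39 and 5.78. All 14 lay under the overall median of 6.14. No neighbouring pair in the order of means passed the test, the widest step being 0.56 from W7 to AII cells. The second probe set, nearly as bright as the first on average, read 8.89 and 8.91 in AII cells, 7.93 and 8.57 in Cdh3 ganglion cells and 6.65 and 6.32 in PaxCre cells, and the floor of 4.09 on both starburst arrays. By that probe set AII cells exceeded the other amacrine cells by 3.90 ± 0.20 (adjusted p = 2.03e-10 in limma), against 0.76 with an adjusted p of 0.127 by the first. The fourth probe set ran the opposite way to the first over the 13 subtypes (r = -0.89), under the overall median on every array.

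Gabrd, the delta subunit gene, was bright in starburst cells alone among these 13 subtypes. The starburst arrays read 10.10 and 10.81, from deposited intensities of 992 and 1500, while PaxCre read 5.85 and 5.99, AII 5.64 and 5.42, MP amacrine 5.44 and 5.53, J amacrine 5.45 and 5.43, ON bipolar 5.49 and 5.52 and MP bipolar 5.47 and 5.51. The 12 ganglion cell arrays ranged from 4.09 to 4.69 with a median of 4.33. Both starburst arrays stood above all others, without overlap, and every other array was under the overall median. The step from starburst to PaxCre cells, the next in order, was 4.53 units, where 8.50% of all genes passed, and is a description only. The gap between ganglion cells and the remaining amacrine and bipolar cells lies among readings near the floor. Over the 12705 probe sets that stayed under the overall median on every array, ganglion cell arrays differed from the others by a median of -0.025 units, and 1.88% differed by 1 unit or more in the direction of Gabrd. The part of scale in the Gabrd gap was not tested. The second Gabrd probe set did not exceed 5.45 on any array, and its highest reading was on starburst replicate 1.

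Ganglion cells were then compared with amacrine cells. Gabra5 and Gabrg3 were higher in ganglion cells and Gabrd was lower, so that 3 of 7 genes passed, against 24.8% of all genes (15.8% higher, 9.00% lower), or 1 of the 5 genes other than Gabrg3 and Gabrd. Gabra5 was 3.67 ± 0.17 units higher (± SE; 12.7-fold; adjusted p = 8.92e-13 in limma; 12 against 10 arrays, no overlap), Gabrg3 1.65 ± 0.20 higher with overlapping arrays and an amacrine side wholly under the overall median, and Gabrd -2.23 ± 0.09. The remaining genes differed by less than 1 unit by their brightest probe sets: Gabra2 by 0.62, Gabra3 by -0.74, Gabra4 by 0.66 and Gabrb1 by 0.56. Their second probe sets gave 5.23 ± 0.12 for Gabra2, -1.12 ± 0.11 for Gabra3, -0.61 ± 0.21 for Gabra4 and 0.57 ± 0.12 for Gabrb1. With the median over probe sets Gabra2 passed, at 1.54. The median difference of the 7 genes was 0.62, and that of all genes 0.0027. With the columns as deposited, where the median of all genes itself lay 0.53 higher in ganglion cells, Gabra2, Gabra4 and Gabrb1 reached 1.11, 1.11 and 1.04. Gabrg3 differed by 0.93 with its second probe set and by 0.60 with the median over probe sets, both under 1 unit. Gabrd was -1.26 without starburst cells, an alternative added after the values were seen.

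Bipolar cells were lower than amacrine cells in Gabra2, Gabra3 and Gabrd (3 of 7 genes, against 10.4% of all genes, 4.67% higher and 5.70% lower), or 2 of the 5 genes other than Gabrg3 and Gabrd. Gabra3 differed by -2.64 ± 0.18 units (adjusted p = 3.05e-09 in limma, 4 against 10 arrays, no overlap), Gabra2 by -2.15 ± 0.21 and Gabrd by -1.07 ± 0.12. The median difference of the 7 genes was -0.82 and that of all genes 0.01. Without starburst cells the Gabrd difference was -0.10, and without starburst replicate 2 alone it was -0.997 and no longer reached 1 unit. The Gabra2 call was absent with the second probe set (0.0066), and with subtype means as the units only Gabra3 passed (adjusted p = 0.311 for Gabra2 in limma). The second Gabra3 probe set gave -0.05 ± 0.15. With C57BL/6 subtypes alone Gabra4 passed too, at -3.35. Of the genes that did not pass, Gabrb1 differed by 0.56 over both bipolar groups but by -1.49 (adjusted p = 3.38e-05 in limma) without the MP bipolar cells, also an alternative added afterwards.

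Against ganglion cells, bipolar cells were lower in Gabra2, Gabra3, Gabra4, Gabra5 and Gabrg3 and higher in Gabrd (6 of 7 genes, against 29.6% of all genes, 11.2% higher and 18.5% lower), or 4 of the 5 genes other than Gabrg3 and Gabrd. Gabra5 differed by -2.79 ± 0.23 units (adjusted p = 4.28e-09 in limma, 4 against 12 arrays, no overlap), Gabra2 by -2.77 ± 0.21, Gabra3 by -1.90 ± 0.18, Gabra4 by -1.48 ± 0.25 and Gabrg3 by -1.42 ± 0.28. Gabrd was 1.16 ± 0.12 higher, at levels under the overall median in both classes, and fell short of 1 unit with the columns as deposited (0.95). Gabrb1 had a difference of 0.00 ± 0.15 and a 95% interval from -0.32 to 0.33. That average held 10.69 in MP and 6.59 in ON bipolar cells, and without the MP cells Gabrb1 differed by -2.05 (adjusted p = 1.65e-07 in limma). The median difference of the 7 genes was -1.48 and that of all genes 0.02. With subtype means as the units, 3 of these 6 calls were absent: Gabra2 (adjusted p = 0.0507 in limma), Gabra4 (0.301) and Gabrd. The Gabra3, Gabrg3 and Gabrd calls were absent with the median over probe sets (-0.41, -0.62 and 0.59). That of Gabra4 was absent with its second probe set (-0.99). The second Gabra3 probe set, between 4.28 and 6.40 on all arrays, gave 1.07 ± 0.15. The Gabrg3 probe sets ranked 2 and 4 gave -1.63 ± 0.14 and 1.13 ± 0.10.

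**Figure D3:**
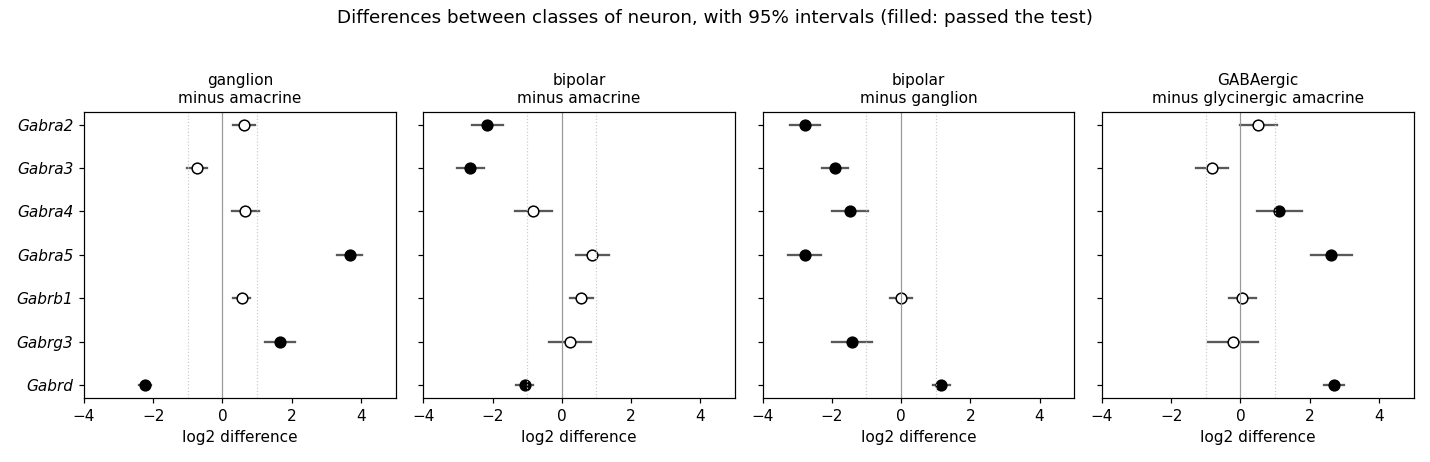
Differences between classes on the log2(intensity + 16) scale (horizontal axis) for the 7 genes, with 95% intervals as lines and 1 unit marked by dotted lines. Filled points passed the test, in which Gabrg3 and Gabrd were entered only through the arrays where they are high. Gabra5 stood 3.67 higher in ganglion than in amacrine cells. Lower in bipolar than in ganglion cells were 5 of the 7 genes, Gabrg3 among them, against 18.5% of all genes.

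Among amacrine cells, starburst and PaxCre cells as GABAergic were compared with AII and J cells as glycinergic. PaxCre and J are so labelled, and starburst and AII were assigned from general knowledge. Gabrd, Gabra5 and Gabra4 were higher in the GABAergic pair (3 of 7 genes, against 9.00% of all genes, 5.74% higher and 3.26% lower), or 2 of the 5 genes other than Gabrg3 and Gabrd. Gabrd differed by 2.70 ± 0.14 units, Gabra5 by 2.63 ± 0.28 (adjusted p = 1.5e-06 in limma, 4 against 4 arrays, no overlap) and Gabra4 by 1.13 ± 0.31 (overlapping). The pairs were not uniform: Gabrd was 10.45 in starburst and 5.92 in PaxCre cells, and Gabra4 was 8.19 in J and 4.80 in AII cells. Gabrb1 differed by 0.06, between a mean of 11.06 in J and 5.71 in AII cells on the glycinergic side. With subtype means as the units none of the 7 genes passed in limma, where the smallest adjusted p was 0.139 (Gabra5), and the Gabra4 call was also absent without starburst replicate 2 (1.02, adjusted p = 0.0509), AII replicate 2 (0.89) or J replicate 2 (0.93). Without AII cells, the one glycinergic group not on C57BL/6, the Gabra4 difference was -0.57.

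Each subtype was next compared with the mean of the other subtypes of its class, which gave 30 calls in 12 comparisons. Starburst cells were higher in Gabrd (4.86 ± 0.16), Gabra5 (2.56 ± 0.31), Gabra4 (2.19 ± 0.34) and Gabra2 (1.73 ± 0.28), and lower in Gabra3 (-1.33 ± 0.25), 5 of 7 genes against 10.9% of all genes (5.32% higher, 5.61% lower), or 4 of the 5 genes other than Gabrg3 and Gabrd. Gabra2 and Gabra4 were about as high in J amacrine cells. J amacrine cells were higher in Gabrb1 (3.73 ± 0.21), Gabra2 (2.36 ± 0.28) and Gabra4 (1.93 ± 0.34), and lower in Gabra5 (-2.53 ± 0.31) and Gabrd (-1.41 ± 0.16), 5 of 7 genes against 6.06% (2.80% higher, 3.26% lower), or 4 of those 5. These 2 subtypes thus shared high readings of Gabra2 and Gabra4 by the brightest probe sets and lay at opposite ends of the class for Gabra5. By the second Gabra2 probe set neither difference remained, at 0.23 for starburst cells and 0.22 for J cells. With C57BL/6 subtypes alone, which leaves starburst, J and PaxCre cells, the starburst differences were 0.58 for Gabra2 (adjusted p = 0.184 in limma) and 0.88 for Gabra4 (adjusted p = 0.127), and that of J cells for Gabra4 was 0.57 (adjusted p = 0.356).

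By the brightest probe sets, AII cells ran the other way to J cells in Gabra2, Gabra4 and Gabrb1. They were lower in Gabrb1 (-2.96 ± 0.21), Gabra4 (-2.31 ± 0.34), Gabra2 (-2.28 ± 0.28) and Gabrd (-1.29 ± 0.16), and higher in Gabra3 (1.29 ± 0.25), 5 of 7 genes against 16.2% of all genes (5.73% higher, 10.5% lower), or 4 of the 5 genes other than Gabrg3 and Gabrd. MP amacrine cells were lower in Gabra4 (-2.06 ± 0.34), Gabrb1 (-1.67 ± 0.21), Gabra2 (-1.45 ± 0.28) and Gabrd (-1.35 ± 0.16), 4 of 7 against 10.4% (5.13% higher, 5.26% lower), or 3 of those 5. The Gabra2 call there was absent without MP replicate 2 (-0.97). By the second Gabra2 probe set the differences were -0.12 for AII and -0.10 for MP cells, and neither passed. The third gave -1.84 ± 0.26 for AII cells. The Gabra3 call of AII cells was absent with the median over probe sets (0.51), and the second Gabra3 probe set gave -0.26 ± 0.20. The mean on the other side holds starburst cells for each Gabrd difference of J, AII and MP cells, whose own means were 5.44, 5.53 and 5.48. PaxCre cells passed for none of the 7 genes, where 6.54% of all genes did (4.97% higher, 1.56% lower), their largest difference being -0.81 in Gabrd. With C57BL/6 subtypes alone Gabra2 was -1.92 there (adjusted p = 0.000291 in limma) and Gabrd -2.03.

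Within ganglion cells 7 differences passed, spread over all 6 subtypes. BD cells were higher in Gabra4 (2.11 ± 0.34, 0.495% of all genes passing, 0.315% higher and 0.179% lower) and W3 cells lower in it (-1.85 ± 0.34, 0.803%, 0.344% higher and 0.459% lower). W7 cells were higher in Gabra2 (1.81 ± 0.28, 1.37%, 0.681% higher and 0.688% lower), while Isl2 cells (-1.72 ± 0.28, 0.222%, 0.194% higher and 0.0287% lower) and Cdh3 cells (-1.38 ± 0.28, 2.09%, 1.26% higher and 0.824% lower) were lower in it. Gabra3 was higher in Cdh3 cells (1.10 ± 0.24) and lower in J cells (-1.22 ± 0.24, 2.04%, 1.63% higher and 0.416% lower). Each of the 7 calls was lost when 1 of its own subtype's 2 arrays was left out: BD replicate 2 (1.61), W3 replicate 1 (-1.47), W7 replicate 2 (1.55), either Isl2 array (-1.96 and -1.49), Cdh3 replicate 2 (-0.89 for Gabra2 and 0.91 for Gabra3) and J replicate 1 (-0.84). With the second probe set the Gabra4 calls of BD (0.74) and W3 cells (-0.68) and the Gabra2 calls of Isl2 (-0.97) and Cdh3 cells (-0.89) were absent. With ganglion arrays alone the adjusted p in limma was 0.111 for Isl2 (Gabra2), 0.0676 for W3 (Gabra4), and 0.0700 for Cdh3 and 0.0755 for J cells (Gabra3). The Gabra2 call of W7 cells passed in both. Microglial markers averaged 7.96 in W3, 8.21 in Cdh3, 8.49 in W7, 9.20 in BD, 10.08 in Isl2 and 10.55 in J cells. The 4 vessel markers averaged 6.16 in W3, 6.34 in Isl2, 6.97 in BD, 7.35 in W7, 7.97 in Cdh3 and 8.54 in J cells. The part of both lists in these differences was not tested.

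Of the 2 bipolar groups, ON cells were lower than MP cells in Gabrb1 (-4.10 ± 0.27, adjusted p = 1.16e-08 in limma), Gabra4 (-2.74 ± 0.44), Gabra2 (-2.58 ± 0.36) and Gabra5 (-1.82 ± 0.39), 4 of 7 genes against 5.03% of all genes (2.59% higher, 2.44% lower). Gabra3, Gabrg3 and Gabrd differed by 0.10, 0.03 and 0.01. The Gabra5 call was absent without MP bipolar replicate 2 (-1.55, adjusted p = 0.101 in limma) or ON replicate 2 (-1.71, adjusted p = 0.0570), and the second Gabra2 probe set gave 0.66. The groups also differed in strain and reporter, which cannot be told apart from the subtype. Bipolar markers averaged 12.19 in MP and 12.09 in ON cells, and rod markers 9.49 and 8.91.

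**Figure D4:**
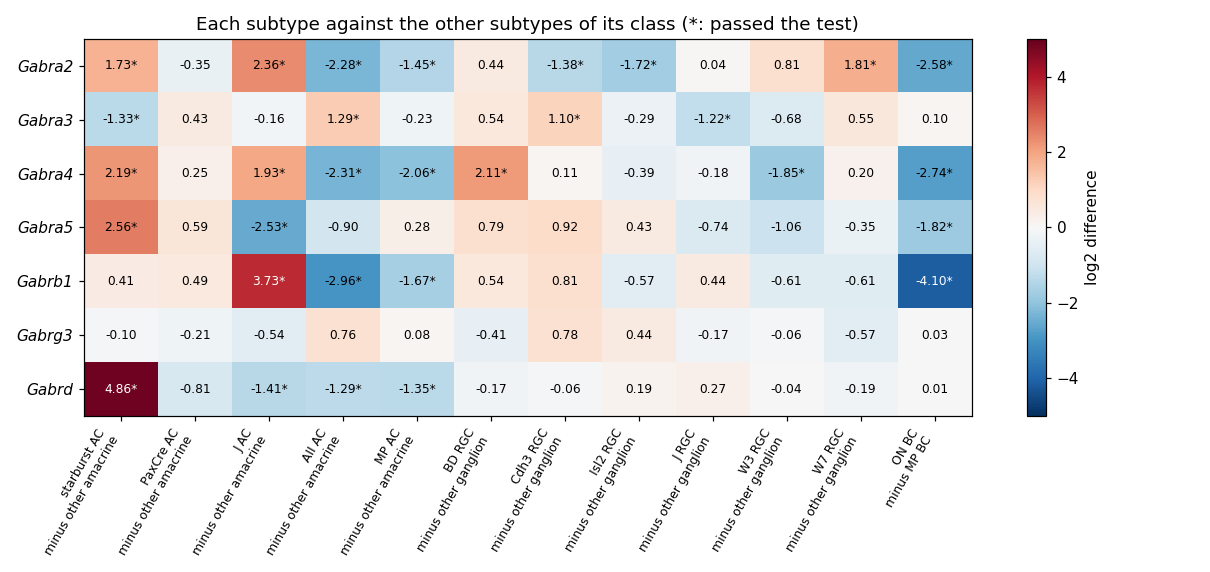
Difference of each subtype from the mean of the other subtypes of its class (columns) for the 7 genes (rows), in log2(intensity + 16) units printed in each cell and shown by colour. Asterisks mark differences that passed the test. The largest was Gabrd in starburst cells at 4.86, a gene tested only through those arrays, and the column of PaxCre cells has no asterisk.

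Several of the genes lie close together in the genome. In the RefSeq annotation of GRCm38.p6, Gabrg1, Gabra2, Gabra4 and Gabrb1 form a cluster on chromosome 5, Gabrg3 and Gabra5 lie close together on chromosome 7, and Gabra3 is on chromosome X. Over the 13 subtype means, Gabra5 and Gabrg3 had a Pearson r of 0.83, Gabra4 and Gabrb1 0.76 and Gabra2 and Gabra4 0.73. These points share arrays, normalization and the scale difference between classes, so the values are descriptions. Over the 7 amacrine and bipolar subtypes alone the r values were 0.17, 0.82 and 0.92, and over the 6 ganglion cell subtypes 0.45, 0.56 and 0.04. Differences between these values were not tested.

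**Figure D5:**
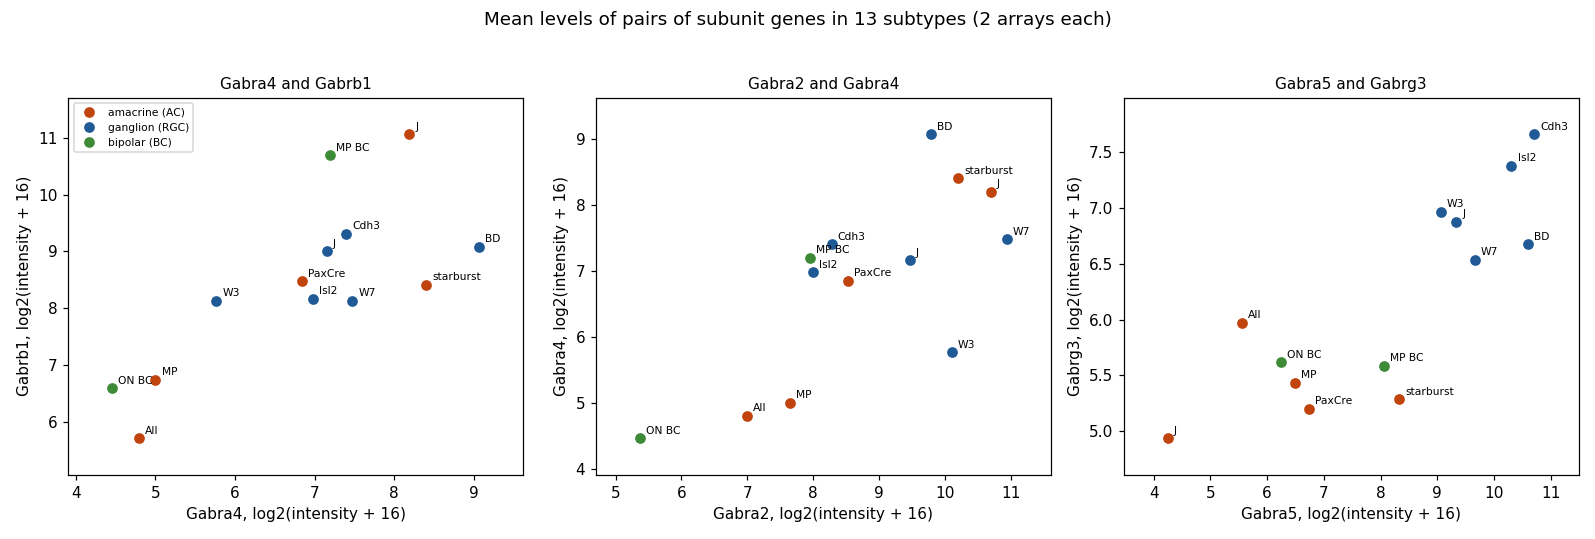
Mean log2(intensity + 16) of 2 arrays in each of the 13 subtypes for 3 pairs of genes, coloured by class. Gabra4 and Gabrb1 (left) had an r of 0.76, Gabra2 and Gabra4 (middle) of 0.73, and Gabra5 and Gabrg3 (right) of 0.83 with ganglion cells in a group of their own.

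RefSeq promoters of GRCm38.p6 were matched by symbol for 6 of the 7 genes. The start site of Gabra4 is at chr5:71658308 on the minus strand and the nearer of 2 start sites of Gabrb1 at chr5:71657921 on the plus strand, 387 bases apart, so that the first bases transcribed from the 2 genes overlap on opposite strands. Gabra2 starts at chr5:71095849 (minus strand), and Gabra3 at chrX:72656919 and chrX:72656807 (minus strand). The 250 bases before the start sites of Gabra5 and Gabrg3, both higher in ganglion cells, are shown here at chr7:57510060-57510309 and chr7:57387216-57387465, minus strand, 5′ to 3′. Capitals mark the matches found.
Gabra5: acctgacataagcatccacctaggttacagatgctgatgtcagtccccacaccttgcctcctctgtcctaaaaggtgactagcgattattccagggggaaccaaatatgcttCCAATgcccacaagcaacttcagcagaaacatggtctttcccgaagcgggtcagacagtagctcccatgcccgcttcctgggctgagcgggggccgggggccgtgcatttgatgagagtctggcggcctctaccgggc
Gabrg3: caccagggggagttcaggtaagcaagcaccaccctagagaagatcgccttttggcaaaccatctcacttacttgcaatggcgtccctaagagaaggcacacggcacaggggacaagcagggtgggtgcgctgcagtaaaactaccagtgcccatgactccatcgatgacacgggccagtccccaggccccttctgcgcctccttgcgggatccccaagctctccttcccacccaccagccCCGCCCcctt
Both strands were searched for TATAAA (in 12.4% of all 32851 promoter windows of that length), GGGCGG (32.7%), CCAAT (33.8%) and TAATTA (4.84%), letters that mark a TATA box, a GC box, a CCAAT box and a homeodomain core. Gabra5 held 1 CCAAT, beginning 138 bases before the start, and Gabrg3 1 GGGCGG on the other strand, beginning 10 bases before it, and no motif was found in both windows. Gabra4 held 2 GGGCGG and 1 CCAAT, Gabra2 1 of each, both Gabra3 windows, which overlap, TATAAA and CCAAT, and both Gabrb1 windows none of the 4. The GC share of the window was 70.0% for Gabra2, 61.2% for Gabra4, 60.4% for Gabrg3, 56.4% for Gabra5, 64.4% and 50.8% for Gabrb1 and 42.4% and 39.2% for Gabra3, against a median of 52.4% for all promoters.

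For each gene, the 3 genes whose 13 subtype means were most like its own by Pearson r among all genes tested were named. For Gabra5 they were Vamp1, a synaptic vesicle protein gene, Znf41-ps and Tmem14a (r = 0.95, 0.95 and 0.94). Those for Gabrg3 were Serhl, Trmo and Anln (0.98, 0.97 and 0.96). For Gabrd, whose pattern is set by 1 subtype, they were Rprml, Noa1 and Pkp1 (0.97, 0.97 and 0.96). Gabra3 was most like Nedd4l, a ubiquitin ligase gene, Slc39a6 and Ptprf (0.88, 0.88 and 0.87), and Gabra4 most like the protocadherin gene Pcdh18 and 2 genes with clone names, 1700003F12Rik and 4930413G21Rik (0.89, 0.86 and 0.84). Gabra2 was most like Pdzd8, Scrt2 and Anapc5 (0.87, 0.83 and 0.83), and Gabrb1 least close to any gene, with Shf, Gtf2f1 and Loxl1 at 0.82, 0.81 and 0.78.

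Among other subunit genes Gabrb2 and Gabrg1 differed between classes. Of the 9 listed, 6 were named on the array and 5 tested (Gabra6, Gabrb2, Gabrg1, Gabre and Gabrp). Between ganglion and amacrine cells all 5 stayed under 1 unit, from -0.31 for Gabrp to 0.93 for Gabrb2. Gabrb2, a beta subunit gene, was 1.45 ± 0.15 units higher in bipolar than in amacrine cells, and Gabrg1, a gamma subunit gene, was -2.23 ± 0.19 against amacrine and -3.08 ± 0.19 against ganglion cells. Among amacrine cells Gabrb2 ran as Gabrb1 did for J (2.69 ± 0.21) and AII (-2.02 ± 0.21), and it was lower in starburst cells (-1.27 ± 0.21). Among ganglion cells Gabrb2 was lower in Cdh3 (-1.38 ± 0.20), and Gabrg1 was higher in J (1.45 ± 0.25) and W7 (1.33 ± 0.25) and lower in W3 (-1.81 ± 0.25). The rho subunit genes Gabrr1 and Gabrr2 were 4.92 ± 0.26 and 2.97 ± 0.31 units higher in bipolar than in amacrine cells.

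Of 20 genes for receptor anchoring, trafficking and chloride balance, 1 was higher and 2 were lower in ganglion than in amacrine cells, with a median difference of -0.04, where 24.8% of all genes passed. Clptm1, which holds GABA-A receptors back in the endoplasmic reticulum, was 3.08 ± 0.21 units higher, while Hap1, a partner in receptor recycling, and Rdx, which anchors alpha-5 receptors to actin, differed by -1.09 ± 0.11 and -1.01 ± 0.13. Bipolar cells were higher than amacrine cells in Plcl1 (1.78 ± 0.26), Hap1 (1.51 ± 0.16) and Trak2 (1.17 ± 0.19), and in none of the 20 lower, where 10.4% of all genes passed. GABAergic amacrine cells were lower than glycinergic ones in 3 of the 20 (9.00% of all genes passed): Slc12a2, the chloride importer (-2.07 ± 0.20), Plcl2 (-1.46 ± 0.17) and Rdx (-1.02 ± 0.21). Starburst cells (10.9% of all genes passed) were lower in 5, led by Hap1 (-3.02 ± 0.21), Slc12a2 (-1.95 ± 0.22) and Plcl1 (-1.89 ± 0.35), and higher in 2, Nsf (1.22 ± 0.19) and Iqsec3 (1.17 ± 0.13). The chloride exporter Slc12a5 was also lower there (-1.30 ± 0.12). AII cells were higher in Slc12a2 (2.30 ± 0.22).

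Genes of GABA synthesis, release and uptake, of which 7 were tested, were also compared. Slc32a1, the vesicular GABA transporter, differed by -6.65 ± 0.11 and Gad1, a GABA-synthesizing enzyme, by -3.39 ± 0.20 between ganglion and amacrine cells. Both were also lower in bipolar than in amacrine cells (-4.04 ± 0.15 and -4.60 ± 0.28). Gad1 was 4.06 ± 0.34 higher in the GABAergic than in the glycinergic pair. It was lower in AII (-4.67 ± 0.38) but higher in J amacrine cells (1.66 ± 0.38), which are labelled glycinergic, than in the other amacrine subtypes. Gad2 and the GABA transporter gene Slc6a11 were higher in ganglion than in amacrine cells, by 1.23 ± 0.11 and 1.64 ± 0.08. Among amacrine subtypes the Gad2 means spanned 0.91 units, short of 1 unit, while those of Gad1 spanned 6.64. Other probe sets of these listed genes were not compared.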

How the data were processed

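Expression was measured on Affymetrix arrays after papain dissociation, cell sorting and 2 rounds of RNA amplification, per the labels' protocols. The deposited values are intensity values on a linear scale, 1 per probe set and array. Their software and scaling were not given in the sources used here. 2.87 to 4.01% of values per array stand at 1, so readings near the floor have little meaning.

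The deposited table has 45037 probe sets beside 64 controls. The platform table gave 34945 a single symbol, 932 several and 9160 none, and those with several or none were left out. Values were quantile-normalized over 26 arrays and transformed to log2(intensity + 16). Each gene took its brightest probe set by mean. Genes with at least 2 arrays above the overall median were kept (13951). 1 fit in limma 3.58.1 (R 4.3.3) held a mean per subtype, weighted subtypes equally in class contrasts, left 13 residual degrees of freedom and used Benjamini-Hochberg adjustment over all genes tested. It was tested on simulated data first. Replicate arrays correlated at 0.936 to 0.991, and the number of arrays limits the precision. Same-numbered arrays came from no shared animal named in the labels, and their deviations had a median correlation of 0.03 over 78 pairs of subtypes, so the numbers were not taken as pairs.

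The 7 genes and all gene lists were chosen with earlier results of these data known. Named genes were the 7 genes, listed genes that passed and, for each of the 7 genes, the 3 with the highest Pearson r. Sequences came from RefSeq promoters of GRCm38.p6.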

Additional observations from a re-analysis of the deposited data

How the results depend on the processing

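Of 112 comparisons of the 7 genes, 45 passed, and 13 of these passed under every alternative that gave a value for them, 38 to 42 each. They include Gabra5 between ganglion and amacrine cells (2.90 to 4.37) and Gabrb1 in J amacrine cells (2.62 to 4.14). Gabra5 has a single probe set, so the median over probe sets and the next brightest probe set could not change its levels. Also among the 13 are the Gabrd differences of starburst cells and of ganglion against amacrine cells, which are descriptions only. Shares of all genes stand above with each comparison. Where a count moved, the cause was not tested, apart from what leaving out samples or genes does by construction. Ganglion against amacrine cells gave 3 calls, but 6 with the columns as deposited, 6 with quantile normalization within each set of arrays, 1 with the filter at 13 arrays and 5 without starburst cells. As deposited, the share of all calls that were higher in ganglion cells was 85.5% against 63.7% (4503 calls against 3456). Bipolar against amacrine cells gave 3, but 5 with pseudocount 1, with C57BL/6 subtypes alone and without MP bipolar cells, and 1 with the next brightest probe set and with subtype means as units. Leaving out 1 array gave 2 to 5, the 5 without MP bipolar replicate 1 and the 2 without starburst replicate 2. Bipolar against ganglion cells gave 6, but 3 with pseudocount 64, the median over probe sets, the next brightest probe set and subtype means. GABAergic against glycinergic cells gave 3, and 0 with subtype means. The F-test among ganglion subtypes gave 5, but 3 with C57BL/6 subtypes alone and with ganglion arrays alone. Neighbours in order gave 6, but 3 with the next brightest probe set. The replicate block gave 3 calls for ganglion against amacrine cells and changed no call of the 7 genes.

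Signs turned with C57BL/6 subtypes alone, where AII, MP and Cdh3 cells are left out and J cells are the one glycinergic group. GABAergic minus glycinergic was then -1.33 for Gabra2, -0.57 for Gabra4 and -2.62 for Gabrb1. PaxCre cells gave -1.45 for Gabra4 and -1.26 for Gabrb1, starburst cells -1.36 for Gabrb1, and bipolar cells -2.73 against amacrine and -1.91 against ganglion cells for Gabrb1. Without MP bipolar cells the last pair were -1.49 and -2.05. With the next brightest probe set Gabra2 gave 0.0066 for bipolar against amacrine and 0.66 for ON against MP bipolar cells, and Gabrg3 gave -1.54 in MP amacrine cells.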
